A study of Homo sapiens with 41 samples.

Results

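The occupancy of Elongin A was examined at 10 genes that encode abundant heterogeneous nuclear ribonucleoproteins (hnRNPs): HNRNPA1, HNRNPA2B1, HNRNPC, HNRNPD, HNRNPF, HNRNPH1, HNRNPK, HNRNPL, HNRNPM and HNRNPU. They were chosen by name, out of 20136 protein-coding genes, and a peak was assigned to a gene when it overlapped the GENCODE gene on hg19, extended by 1 kb at either side, by at least 1 bp. DLD1, a human colon cancer cell line, was used as wild type cells without siRNA, and the chromatin was fixed with formaldehyde. Elongin A was mapped by CUT&RUN, in which a nuclease tethered to an antibody releases the DNA that its target occupies, and by ChIP-seq. With the goat antibody, 2 CUT&RUN replicates were set against goat IgG and gave 1 list of 8720 peaks. With the mouse antibody, 1 CUT&RUN sample gave 2338. The labels include a mouse IgG library, while the study's methods name goat IgG for CUT&RUN, so which control the mouse antibody folds are relative to is not given in the sources used here. A lone ChIP-seq sample with its input gave 186. No list separates replicates and the lists carry no read totals, so the depth is unknown, no value below has an error and no difference was tested. The expression of these genes in DLD1 cells was not analysed here.

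The hnRNPs are RNA-binding proteins that coat nascent pre-mRNA in the nucleus and take part in splicing, 3′ end formation, export and mRNA turnover. Their genes are transcribed at high levels in most growing cells, many make several transcripts from the same gene, and some share a promoter region with a neighbouring gene on the opposite strand. Elongin A is the large subunit of Elongin, a factor that stimulates elongation by RNA polymerase II in vitro. Elongin A also belongs to a ubiquitin ligase acting on stalled polymerase. In DLD1 cells, the study reported no dramatic change in elongation rates after Elongin A was depleted. It did report much less Ser2-phosphorylated polymerase and more promoter pausing. Elongin A signal was stronger at more highly expressed genes in that study. It more often saw signal over the body and beyond the end of short genes, and near the start alone of longer ones.

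Elongin A peaks were found at 9 of the 10 hnRNP genes in the goat antibody list, at all but HNRNPM, against 21.7% of all protein-coding genes and 18.7% of those of similar length (from the shortest to the longest of the 10 genes, 6.90 to 60.4 kb). The 9 genes held 37 goat antibody peaks. At 7 of the 10 genes there were at least 3 goat antibody peaks (2.86% of protein-coding genes had as many) and at 5 there were at least 5 (0.934%). Merging peaks within 1 kb of each other reduced the 37 to 21, and 5 genes then held at least 3 (2.19%). With basic transcripts, the representative subset tagged by GENCODE, 6 genes held at least 3 (2.58%), since 2 of the 3 peaks of HNRNPU lie over COX20. In the mouse antibody list 4 genes, HNRNPA1, HNRNPA2B1, HNRNPC and HNRNPM, held 8 peaks, against 7.80% of protein-coding genes. None of the 10 genes held a ChIP-seq peak, and with 0.785% of protein-coding genes holding one, the short ChIP-seq list says little about any set of 10. Its peak closest to any of the genes lay 659 kb from HNRNPD. Apart from the 18.7%, these shares are over protein-coding genes of any length, and all of them include silent genes. The part of gene length in the number of peaks was not tested.

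**Figure D1:**
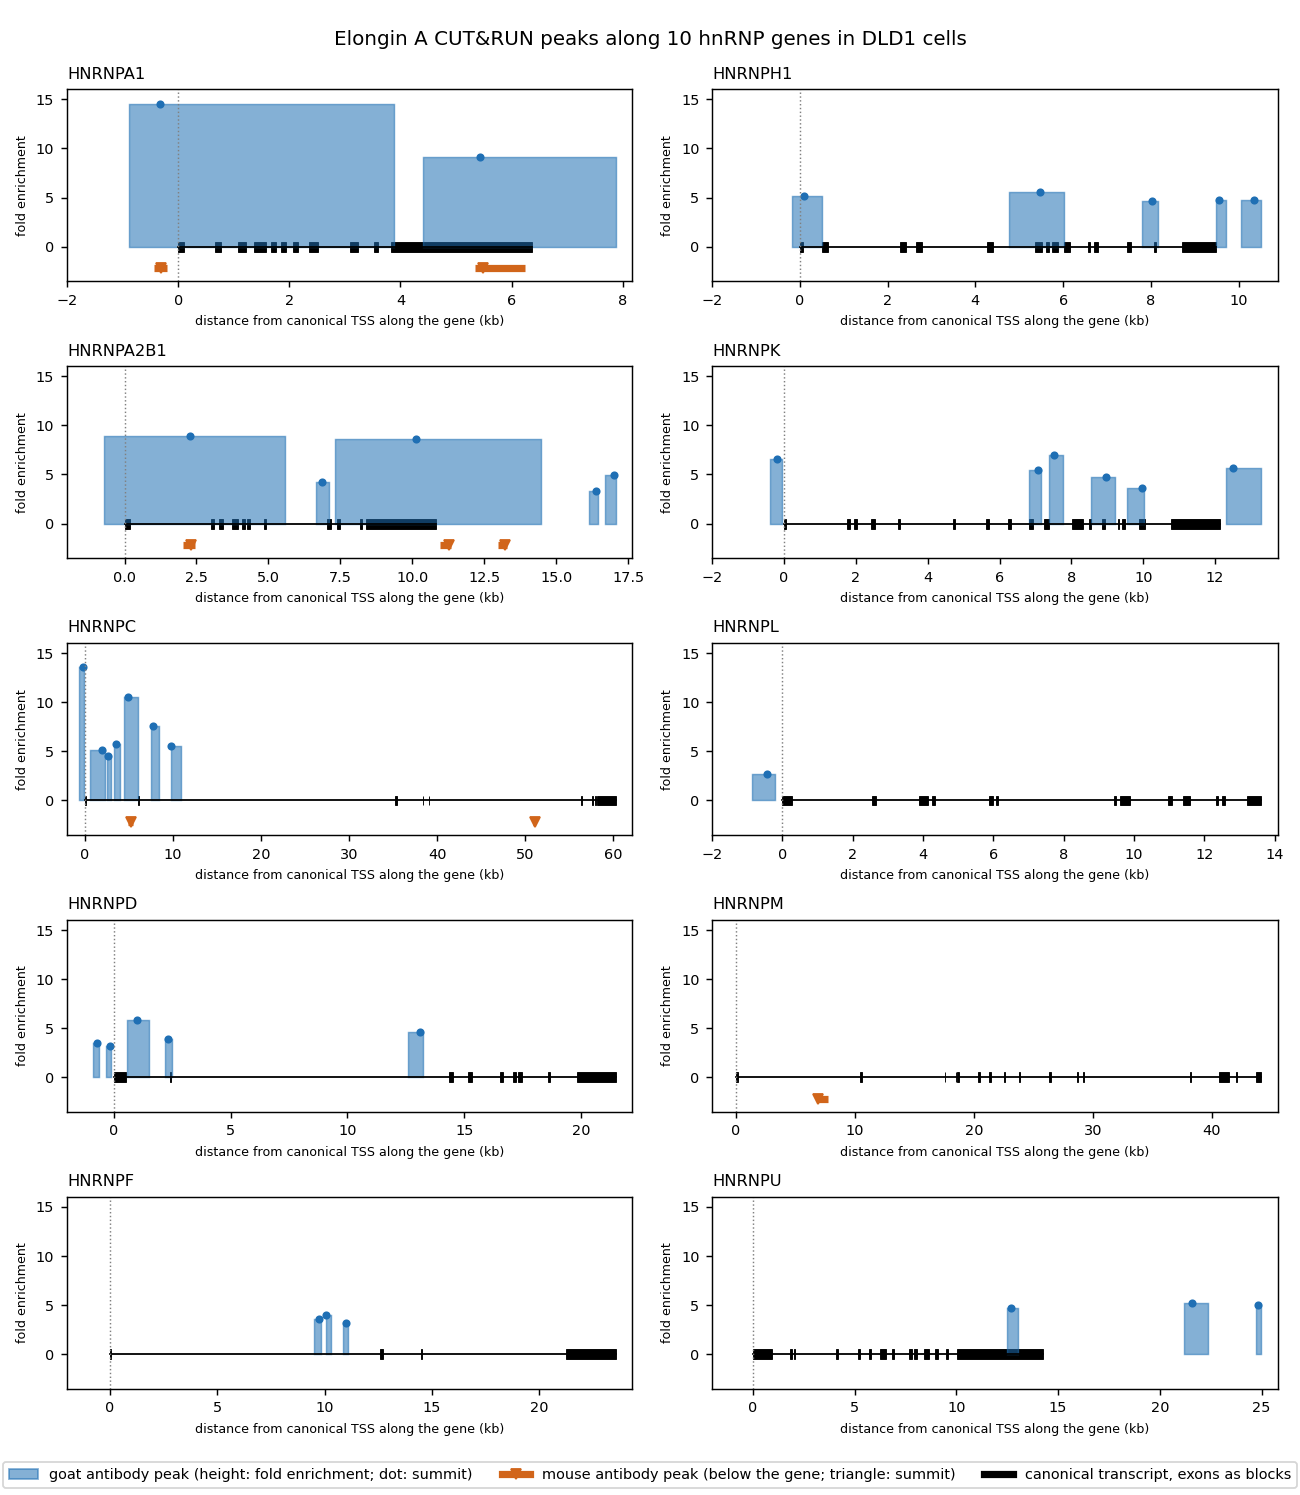
Peaks along each of the 10 genes, with the distance from the canonical transcription start site (TSS) in kb on the horizontal axis and fold enrichment on the vertical axis. Blue boxes span goat antibody peaks (height: fold enrichment, dot: summit), orange bars below the gene mark mouse antibody peaks, whose height carries no value, and black blocks mark exons. Broad peaks cover HNRNPA1 and HNRNPA2B1, a cluster sits on the first part of HNRNPC, and HNRNPM has no goat antibody peak.

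The peaks were spread widely over the goat antibody list, from rank 19 to rank 8508 of 8720. Fold enrichment, the ratio of signal to the local control at the summit, ran from 2.69 at HNRNPL to 14.5 at HNRNPA1, with a median of 4.98, against a range of 1.90 to 43.6 and a median of 4.32 over the whole list. By this measure 18 of the 37 peaks reached a fold of 5 (30.1% of all peaks in the list did), while 10 lay below the median of the list. The median percentile of the 37 peaks was 69.5 by fold enrichment and 55.0 by q-value, so their standing depended on the column used to rank them. They were wider than most: the median width was 533 bp against 362 bp over the list, and 9 of the 37 (24.3%) were at least 1 kb wide against 4.51% of all peaks. The 9 wide peaks fell on 5 genes, HNRNPA1, HNRNPA2B1, HNRNPC, HNRNPH1 and HNRNPU, and 1.64% of protein-coding genes held such a peak. The wide peak of HNRNPU lies over COX20, and with basic transcripts 4 genes held one. The strongest peaks were concentrated further. HNRNPA1, HNRNPA2B1 and HNRNPC together held 6 peaks among the 200 highest by fold enrichment, 3 of them among the top 100, and 0.924% of protein-coding genes held a peak in the top 200.

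**Figure D2:**
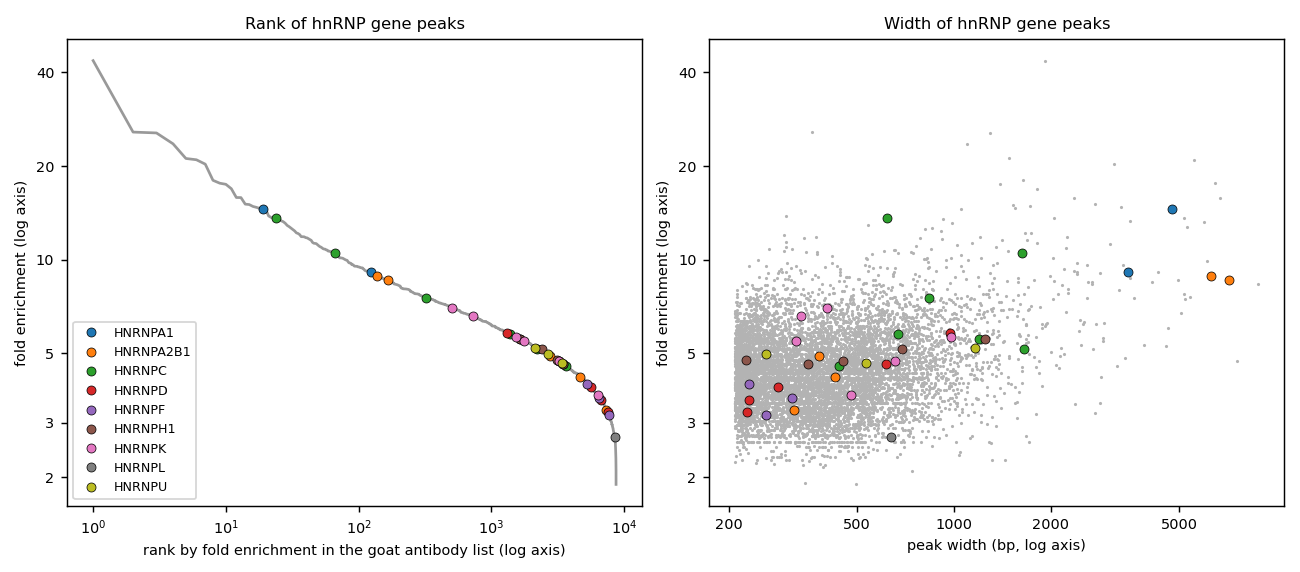
Fold enrichment of goat antibody peaks against their rank in the list (left, grey line: all 8720 peaks) and against their width in bp (right, grey dots: all peaks); all axes are logarithmic and coloured dots are the 37 peaks at hnRNP genes. The highest or widest peaks, at HNRNPA1, HNRNPA2B1 and HNRNPC, lie at the upper end of fold or width, while other peaks of HNRNPA2B1 and HNRNPC do not. The peaks of HNRNPF and HNRNPL lie at the lower end of fold.

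HNRNPA1 (ENSG00000135486, chr12:54673977-54680872, plus strand) and HNRNPA2B1 (ENSG00000122566, chr7:26210771-26241149, minus strand) encode the A/B proteins of the hnRNP core particle, which often repress the use of splice sites. HNRNPA1 held 2 goat antibody peaks that between them covered 7706 bp, or 86.6% of the gene with its flanks. The 4756-bp peak began upstream of the canonical TSS, at -877, had its summit at -333, and ended 3878 bp inside the gene. Its fold enrichment of 14.5 ranked 19 in the goat antibody list, and by q-value it ranked 6. A 3467-bp peak then ran from 4413 bp downstream of the TSS past the end of the transcript, with its summit at 5436 in exon 11, in the 3′ UTR, a fold of 9.13 and rank 124. So the Elongin A signal called at HNRNPA1 extended over nearly the entire transcribed region. Its 3′ peak also lies at the start of short alternative transcripts in GENCODE, and counts as a promoter peak when these are included. Both peaks overlap the unnamed lncRNA ENSG00000258344, annotated on the same strand, and ENSG00000289154 starts within 1 kb of the upstream peak on the opposite strand.

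At HNRNPA2B1 the goat antibody list held 5 peaks, which covered 14551 bp (44.9% of the gene with its flanks). This length ranked 3 among all protein-coding genes. The covered length of HNRNPA1 ranked 20 and that of HNRNPC, described next, ranked 23. A 6288-bp peak with a fold of 8.89 (rank 137) reached from -718 relative to the canonical TSS to 5569 bp inside the gene, and its summit lay in intron 1, 2292 bp downstream of the TSS. A 7135-bp peak with a fold of 8.59 (rank 166) had its summit in exon 11, in the 3′ UTR, and continued 14456 bp past the TSS, beyond the canonical end at 10.8 kb. The other 3 peaks were 319 to 428 bp wide, with folds of 3.29 to 4.92. The peaks past the canonical end lie within longer HNRNPA2B1 transcripts and 3 of the peaks overlap NFE2L3, which is transcribed from the opposite strand towards HNRNPA2B1, so the gene they belong to cannot be told apart.

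The summit in intron 1 of HNRNPA2B1 was the site where the antibodies coincided most closely. The goat antibody summit and the mouse antibody summit (fold 6.25, rank 125 of the mouse list by fold and 26 by q-value) lay 13 bp apart. The 300 bases around the goat antibody summit (chr7:26237925-26238224, hg19, minus strand, 5′ to 3′) are shown since this is the top site of the gene in both CUT&RUN lists. They were chosen after the values were seen. Capitals here and in the sequences that follow mark matches, on either strand, to 6 short promoter motifs: the ETS motif CCGGAAG, the CCAAT box CCAAT, the GC box GGGCGG, the TATA box TATAAA, the E-box CACGTG and the CRE half-site TGACGT.
HNRNPA2B1 intron 1: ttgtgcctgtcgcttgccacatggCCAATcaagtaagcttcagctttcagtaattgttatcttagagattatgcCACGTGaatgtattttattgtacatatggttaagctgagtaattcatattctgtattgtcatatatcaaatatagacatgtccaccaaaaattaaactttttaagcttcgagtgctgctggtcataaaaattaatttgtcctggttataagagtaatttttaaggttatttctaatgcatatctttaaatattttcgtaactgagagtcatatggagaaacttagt
The stretch held 1 CCAAT match and 1 E-box match. Its GC content was 31.7%, with 4 CpG dinucleotides, well below the median of 54.3% and 13 CpG in the 1776 goat antibody peaks of the list that lie in a promoter window, and below that of the other 6944 peaks (42.7% and 3 CpG) in GC content alone. The strongest site that both antibodies marked at HNRNPA2B1 was thus an AT-rich intronic sequence. Of the 1776 peaks in a promoter window, 6.08% held an E-box match in the 300 bases around the summit, as did 3.38% of the other peaks.

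Both A/B genes start close to a gene on the opposite strand that encodes an HP1 chromodomain protein, which binds methylated histone H3 in heterochromatin. The canonical TSS of CBX5 lay 604 bp from that of HNRNPA1, and the canonical TSS of CBX3 lay 999 bp from that of HNRNPA2B1. In each pair a peak lay over the hnRNP start and part or all of the region between the starts, and extended mainly over the hnRNP gene. At HNRNPA1 it reached 3878 bp into the hnRNP gene and 273 bp into the canonical CBX5 transcript (284 bp into the CBX5 gene with all its transcripts). At HNRNPA2B1 it reached 5569 bp into the hnRNP gene and ended short of the canonical TSS of CBX3, at -281 from it. With all transcripts of CBX3 counted, it overlapped the first 302 bp of that gene. No other goat antibody peak was called at CBX5 or CBX3 with 1 kb either side. The asymmetry is one of peak extent in a merged list and was not tested.

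**Figure D3:**
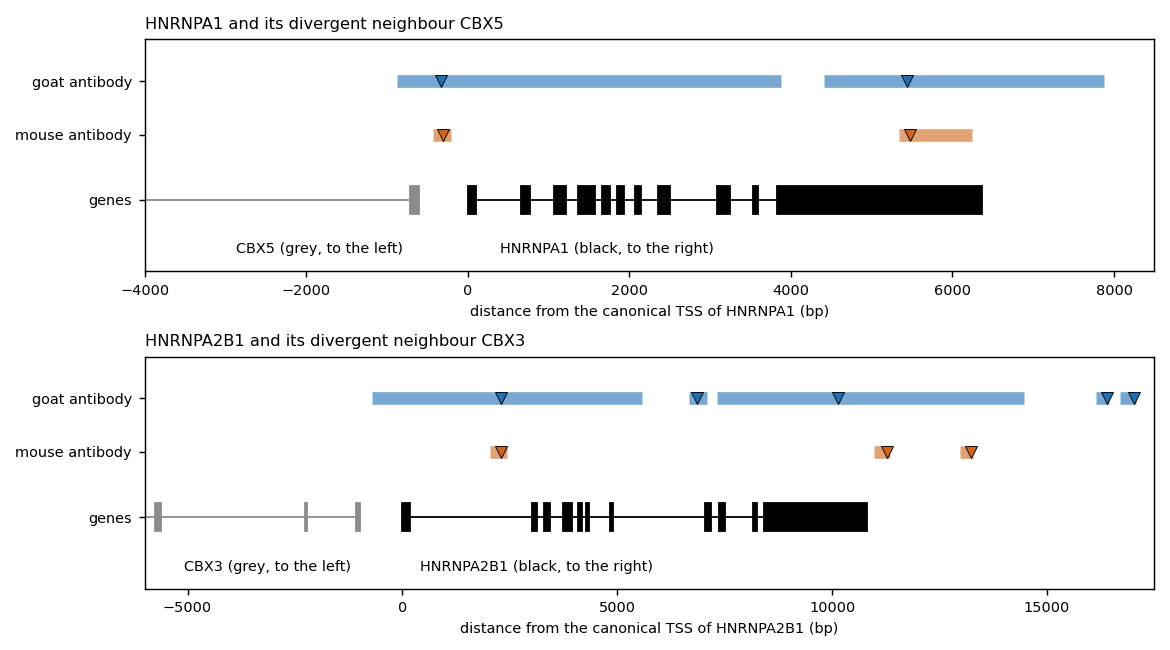
Goat antibody peaks (blue) and mouse antibody peaks (orange) at HNRNPA1 with CBX5 (top) and HNRNPA2B1 with CBX3 (bottom), by distance in bp from the canonical TSS of the hnRNP gene; bars span the peaks, triangles mark summits and blocks mark exons of the canonical transcripts. The peak at the start of each hnRNP gene extends 3878 bp into HNRNPA1 and 5569 bp into HNRNPA2B1. Mouse antibody summits lie 25 and 44 bp (HNRNPA1) and 13 bp (HNRNPA2B1, intron 1) from goat antibody summits. The other mouse antibody summits of HNRNPA2B1 lie 1146 and 3101 bp from the nearest goat antibody summit.

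HNRNPC (ENSG00000092199, chr14:21677295-21737653, minus strand) encodes the C proteins, which bind uridine tracts in pre-mRNA. It held the most goat antibody peaks of the 10 genes, 7, with folds from 4.54 to 13.6. All 7 lay between -668 and 10943 bp relative to the TSS, that is, in the first part of a gene of 60.4 kb. The upstream peak, 620 bp wide with its summit at -161, had a fold of 13.6 and ranked 24 in the list. In intron 1 a 1622-bp peak 4966 bp downstream of the TSS had a fold of 10.5 and ranked 67. A peak in intron 2 had a fold of 7.55 and ranked 323, but the 32 bases at its summit occur 6 times in the genome. The remaining 4 had folds of 4.54 to 5.77. HNRNPC thus differed from HNRNPA1 in shape, with separate peaks ending 10943 bp from the TSS. The covered length was close to that of HNRNPA1, 7032 against 7706 bp, but made up 11.3% of this longer gene with its flanks.

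The sequence at the upstream summit of HNRNPC (chr14:21737654-21737912, hg19, minus strand, 5′ to 3′, at -311 to -53 from the canonical TSS) is given as the strongest promoter site that lies outside annotated UTRs. The summit is base 151.
HNRNPC upstream: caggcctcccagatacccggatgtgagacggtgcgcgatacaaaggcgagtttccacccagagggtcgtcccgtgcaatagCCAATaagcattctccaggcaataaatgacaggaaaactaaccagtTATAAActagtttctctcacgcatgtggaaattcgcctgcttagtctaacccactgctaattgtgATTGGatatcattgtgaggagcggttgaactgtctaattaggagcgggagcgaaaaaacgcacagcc
These 259 bases held 2 CCAAT matches and 1 TATA box match, 13 CpG and a GC content of 48.6%. In the 300-base window around the summit, 35.7% of the goat antibody promoter peaks held a CCAAT match, and so did 34.8% of the others, so that match is as common away from promoters. A TATA box match was present in 13.3% of the promoter peaks and 24.9% of the others. The corresponding window at HNRNPA1 lies wholly within a UTR exon of an alternative transcript and is not printed.

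HNRNPD (ENSG00000138668, chr4:83273651-83295656, minus strand) encodes AUF1, which binds AU-rich elements and controls mRNA decay. It held 5 goat antibody peaks with folds of 3.24 to 5.83, and none from the mouse antibody. The strongest, 972 bp wide and ranking 1308, had its summit in intron 1, 999 bp downstream of the TSS. A pair of narrow peaks of 228 and 232 bp lay upstream, with summits at -168 and -736, and overlapped the divergent lncRNA HNRNPD-DT, whose TSS was 294 bp away. The upstream peaks of HNRNPD were weaker than its intronic ones, with folds of 3.24 and 3.54 against 3.90 to 5.83, while at HNRNPC the upstream peak had the highest fold. By q-value neither order holds: the upstream peaks of HNRNPD (ranks 5561 and 4603) came before its intron 1 peak with a fold of 3.90 (rank 7074), and the intron 1 peak of HNRNPC (rank 55) came before its upstream peak (rank 74).

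HNRNPF (ENSG00000169813, chr10:43881065-43904634, minus strand) and HNRNPH1 (ENSG00000169045, chr5:179041179-179061785, minus strand) encode closely related proteins that bind runs of guanosine and regulate splicing and polyadenylation. HNRNPF held 3 narrow goat antibody peaks of 232 to 314 bp with folds of 3.17, 3.60 and 3.98. All 3 lay within intron 1, 9714 to 11003 bp from the canonical TSS, and the best ranked 5309 by fold and 7167 by q-value. No goat antibody peak lay at the canonical start of HNRNPF, the closest being 9507 bp away, while the nearest start of any basic transcript was 734 bp from a peak. HNRNPH1 held 5 peaks with folds from 4.63 to 5.57. A 692-bp peak covered its TSS (fold 5.16, summit 84 bp downstream), a 1251-bp peak lay over coding exon 6 (fold 5.57, rank 1642), and the other 3 lay at its 3′ end, 8036 to 10356 bp from the TSS. On the canonical transcripts the related genes thus differed in position, with peaks at the start, middle and end of HNRNPH1 and in intron 1 alone of HNRNPF. When all transcripts are counted, the HNRNPF peak with a fold of 3.17 and the 1251-bp HNRNPH1 peak fall in promoter windows. The HNRNPF peaks had −log10 q values of 1.41, 2.34 and 2.53, against a minimum of 1.30 in the list.

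HNRNPK (ENSG00000165119, chr9:86582998-86595546, minus strand) encodes a KH-domain protein that binds C-rich RNA and DNA. It held 6 goat antibody peaks with folds of 3.66 to 7.01. The upstream peak had a fold of 6.61 (rank 724 by fold, 279 by q-value) and the other 5 spread over the second part of the gene and its 3′ flank, from 7066 to 12509 bp past the TSS. Among these, the peak in intron 10 had the highest fold of the gene, 7.01 (rank 506). It and the peak in intron 9 overlap HNRNPK-AS1, an antisense lncRNA. The weakest peak, at coding exon 16, rests on a summit whose 32 bases have 2 copies in the genome. RMI1, which starts 590 bp away on the opposite strand, shares the upstream peak, with the summit at -197 from the HNRNPK TSS and at -393 from that of RMI1.
The 181 bases at that summit that lie outside UTRs (chr9:86595198-86595378, hg19, minus strand, 5′ to 3′, summit at base 52) follow.
HNRNPK upstream: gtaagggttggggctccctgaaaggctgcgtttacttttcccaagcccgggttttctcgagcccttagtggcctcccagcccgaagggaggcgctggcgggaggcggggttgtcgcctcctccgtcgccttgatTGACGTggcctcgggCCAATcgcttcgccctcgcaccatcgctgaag
They held 1 CRE half-site match and 1 CCAAT match, 16 CpG and a GC content of 64.6%. A CRE half-site match was present in the 300-base window of 7.94% of the goat antibody promoter peaks and 3.74% of the others. HNRNPC and HNRNPK thus shared a CCAAT match upstream, in sequence of different GC content, and had no other searched motif in common in the printed stretches.

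HNRNPL (ENSG00000104824, chr19:39327010-39342987, minus strand) encodes a protein that binds CA repeats. Its 1 goat antibody peak, 637 bp wide with the summit at -426, had a fold of 2.69, the lowest of the 37, and ranked 8508 by fold but 3856 by q-value. HNRNPU (ENSG00000153187, chr1:245003940-245027862, minus strand) encodes scaffold attachment factor A, which binds RNA and chromatin. It held 3 peaks with folds of 4.66 to 5.22 and none closer than 12491 bp to its canonical TSS. The summit of the 533-bp peak lay in exon 14, in the 3′ UTR. The other 2 overlapped COX20, and they belong to HNRNPU through long transcripts that run into that gene, so with basic transcripts 1 peak was left. HNRNPL was marked at its start alone. With basic transcripts, HNRNPU was marked in its 3′ UTR alone.

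HNRNPM (ENSG00000099783, chr19:8509651-8553998, plus strand), which encodes a splicing regulator that binds GU-rich RNA, was the exception in the goat antibody list. No goat antibody peak lay within 35.3 kb of the gene and its flanks. In the mouse antibody list it held an 888-bp peak in intron 1 with its summit 6935 bp from the TSS, a fold of 6.55, rank 82 by fold and 141 by q-value. This was the highest fold of the 8 mouse antibody peaks at these genes, and the nearest goat antibody peak was 72777 bp away.

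The mouse antibody list was compared with the goat antibody list at the 10 genes. Of the 8 mouse antibody peaks, 6 (75.0%) overlapped a goat antibody peak, against 32.4% of all mouse antibody peaks. In the other direction 5 of the 37 goat antibody peaks (13.5%) overlapped a mouse antibody peak, against 8.33% of all goat antibody peaks. The 5 were the broad or high peaks of 3 genes: both of HNRNPA1, both broad ones of HNRNPA2B1 and the intron 1 peak of HNRNPC with a fold of 10.5. At HNRNPA1 the summits lay 25 bp apart upstream of the canonical TSS and 44 bp apart in exon 11. The upstream mouse antibody peak of HNRNPA1 had a fold of 4.71, which ranked 829, yet ranked 29 by q-value. The peak in exon 11 had a fold of 5.12 and ranked 550 by fold and 434 by q-value. At HNRNPC the intron 1 summits were 330 bp apart, and the mouse antibody peak had a fold of 4.59. The other pairs of HNRNPA2B1, inside its 7135-bp peak, were 1146 and 3101 bp apart, with mouse antibody folds of 4.39 and 4.06, so they share a peak but not a summit. A mouse antibody peak in intron 5 of HNRNPC (fold 5.29) lay 51074 bp from the TSS, 20979 bp from the nearest goat antibody peak. At the upstream peak of HNRNPC, rank 24 in the goat antibody list, no mouse antibody peak was called.

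The position of the peaks was set beside that of all 7224 pairs of a protein-coding gene and a goat antibody peak, placed in the same way. By summit on the canonical transcript, 19 of the 37 goat antibody peaks at the hnRNP genes lay in introns (58.5% of all pairs), 6 upstream (24.8%), 7 downstream of the transcript end (8.68%), 3 in a 3′ UTR exon (3.35%) and 2 in a coding exon (2.64%). Introns held the most summits at these genes, as they did over all genes. At HNRNPA1, HNRNPD, HNRNPK and HNRNPL an upstream summit lay inside the gene when all its transcripts were counted. A goat antibody peak lay within 1 kb of the canonical TSS at 7 of the 10 genes (HNRNPA1, HNRNPA2B1, HNRNPC, HNRNPD, HNRNPH1, HNRNPK and HNRNPL), against 8.85% of protein-coding genes. A mouse antibody peak did so at 1 gene, HNRNPA1, against 2.93%. When all GENCODE transcripts of each gene were used and peaks were placed by their centre, 12 of the 37 fell in a promoter window (the 1000 bp before a TSS and the 100 bp after it; 27.8% of all pairs), 11 in a window around a transcript end (the 100 bp before it and the 1000 bp after it; 9.59%) and 14 in the gene body (60.7%). With the canonical transcript alone, the promoter count was 5 of 37, near the 16.8% of all pairs. GENCODE lists 8 to 84 transcripts for each of these genes, and the part of that number in the counts over all transcripts was not tested. The 6 summits upstream had a median GC content of 52.7% with 14 CpG in 300 bases, and the other 31 had 39.0% with 2 CpG. Of the 37 goat antibody summits, 35 consisted of a 32-base sequence that occurs at 1 place in the genome, as did all 8 mouse antibody summits. Away from the summits, repeated 32-base sequences made up as much as 36.1% of a peak (HNRNPF, fold 3.17). They made up as much as 27.9% of a gene with its flanks (HNRNPH1). Their effect on the extent or absence of peaks was not tested.

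Other RNA-binding protein genes were described beside the 10. Of 17 other genes of the hnRNP family, 14 held a goat antibody peak, 33 peaks in all, with a median of 1 a gene against 4 for the abundant hnRNP genes. HNRNPLL, RALY and PCBP1 held none. Among genes with a peak, the median fold of the strongest was 5.24, against 5.83 for the abundant hnRNP genes. The highest of the 17 genes was at HNRNPAB (8.55), below those of HNRNPA1, HNRNPC and HNRNPA2B1. HNRNPA3, with a fold of 8.05, was also near the top. Of the 12 SRSF genes, which encode SR proteins that mostly promote splice site use, 8 held a goat antibody peak. The median was 2 peaks a gene over all 12, and the median strongest fold was 5.57 over the 8. SRSF1 held the strongest peak of the entire goat antibody list (fold 43.6, rank 1), followed among the SR genes by SRSF3 (7.83) and SRSF5 (6.92). A goat antibody peak of at least 1 kb was present at 5 of the 12 SR genes and 4 of the 17 other hnRNP genes, against 5 of the 10 abundant hnRNP genes, so broad peaks were not particular to the latter. With the mouse antibody, 1 of the 17 hnRNP family genes (HNRNPUL2) and 2 of the 12 SR genes (SRSF3 and SRSF6) held a peak, against 4 of the 10 abundant hnRNP genes. Gene length differed between the lists, with a median of 22.8 kb for the abundant hnRNP genes, 14.8 kb for the other hnRNP genes and 13.9 kb for the SR genes. Its part in these counts was not tested.

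**Figure D4:**
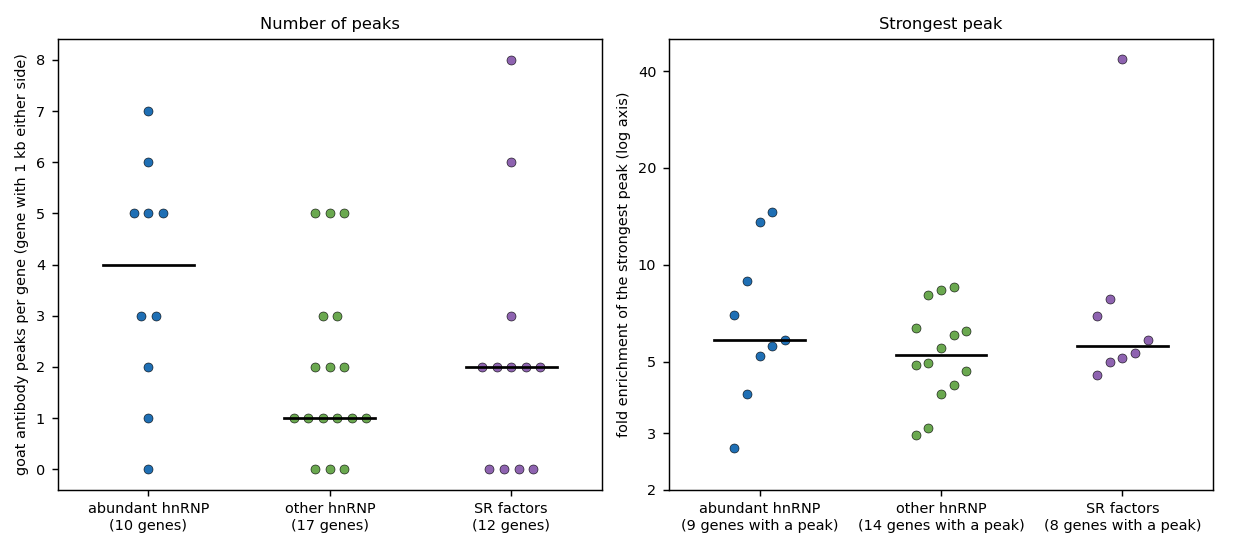
Number of goat antibody peaks per gene (left) and fold enrichment of the strongest goat antibody peak (right, logarithmic axis) for the 10 abundant hnRNP genes, 17 other hnRNP family genes and 12 SR genes. Each dot is a gene and the line is the median. The right panel leaves out genes without a peak. The abundant hnRNP genes had a median of 4 peaks a gene against 1 and 2, while the strongest peaks overlapped between the lists and the highest belonged to SRSF1.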

How the data were processed

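The 3 peak lists used here are the authors' MACS2 output on hg19. Per the study's methods, paired-end reads were aligned with Bowtie2 in local mode, PCR duplicates were removed with Picard, and peaks were called at default settings against IgG (CUT&RUN) or input (ChIP-seq). The deposited fold column is a ratio of signal to local control at the summit. The deposited q-value column is given as −log10 q. How the 2 goat antibody replicates were combined, and the control and settings for the mouse antibody sample, are not given in the sources used here.

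Peaks were overlapped with GENCODE release 44 genes (mapped to hg19, 1 kb flanks, overlap of 1 bp or more) with pandas 2.3.3 in Python 3.11.15, and sequences were read from GRCh37 with pysam 0.24.0. Overlap, merging and placement were tested on simulated peaks. Ranks are within a list, the highest fold first. No tests were made, since each antibody or assay gave 1 list. The members and lists were chosen with earlier results of these data known. Named genes were all 10 members, the 3 highest of each comparison list, the other hnRNP genes without a goat antibody peak, and genes overlapping or starting within 1 kb of a member's peak; HNRNPUL2 and SRSF6 were added after their values were seen. Sequences were 300 bases at the strongest promoter peak of up to 4 members, less UTR bases; HNRNPH1, whose strongest promoter-class peak lies at an internal start and not at its canonical TSS, was not printed. Some items that these rules select are not reported here.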

Additional observations from a re-analysis of the deposited data

How the results depend on the processing

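Of 72 alternative values, 65 stayed close to the reported ones (counts within 1.5 times) and 7 moved. Requiring a fold enrichment of at least 5 left 18 of the 37 goat antibody peaks at the hnRNP genes, 7 of the 12 in a promoter window, 4 of the 8 mouse antibody peaks and 7 of the 14 other hnRNP genes with a goat antibody peak. Merging goat antibody peaks within 1 kb left 21. The median percentile was 55.0 when ranked by q-value instead of 69.5 by fold. With the canonical transcript alone, an alternative chosen after seeing the data, 5 goat antibody peaks lay in a promoter window; the counts of genes with at least 3 peaks or with a wide peak under merging and basic transcripts were also chosen then. Under stricter q-values, other flanks and basic transcripts, between 7 and 9 genes held a goat antibody peak, 7 being the count at a fold of 5. No paired analysis was possible because each list is a pooled or lone call with no values for separate replicates. Without read counts, a gene with no peak cannot be told apart from one under the detection limit of that list.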
